A study of Mus musculus with 6 samples.

Results

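Tgfbr1 and Map3k7 are a pair of TGF-beta signalling genes whose m6A was read in cultured mouse HCC-initiating cells (HCICs), and each gene is described here by itself. The members were chosen by coordinates, as all listed positions of chromosome 4 inside each gene. Tgfbr1 held 90 positions and Map3k7 held 96, together 186 of the 567667 listed in all. The samples, labelled as primary culture, were 3 MTH-WT, in which Mthfd1l is wild type, and 3 MTH-D, in which Mthfd1l was knocked out with lentiviral CRISPR-Cas9. Both groups are numbered 1 to 3, and differences are also given for same-numbered samples as pairs. The main tests are unpaired, and the replicate number enters as a block only in an alternative. The HCICs came from livers of male mice given the carcinogen diethylnitrosamine, some of them controls (CTL) and others double knock-in (DKI) mice with altered Mdm2 and Mdmx. Which line each number stands for is not given in the labels. The study's text names 3 lines, HCIC-1 (CTL), HCIC-2 (DKI) and HCIC-3 (DKI), each from its own mouse. It reports Mthfd1l as depleted in all of them. It says that in HCIC-2 the RNA reads showed a small deletion only, and it used HCIC-1 and HCIC-3 in later experiments. It describes m6A sequencing of HCIC-1 and HCIC-3 alone. All 3 numbers were used here, so n = 3 may hold the line that the study set aside. The loss of Mthfd1l in that line could not be checked here. The samples numbered 1 and 3 were also compared by themselves. Nothing in the labels says that samples came from separate cultures, so p-values measure only the spread between these samples, which may be technical.

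In direct RNA sequencing on a nanopore, native RNA rather than cDNA is read, and m6A, a methyl group on adenosine, is called from the current. Each value is the m6A fraction at 1 adenosine in 1 sample, given here in percent. The deposited table holds no coverage, so its depth is unknown and intervals cannot be given. Neither the knockout of Mthfd1l nor markers of the cell type could be checked from m6A fractions.

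TGF-beta ligands bring a type II receptor together with Tgfbr1, the type I receptor kinase also called ALK5, which then phosphorylates Smad2 and Smad3. Map3k7 encodes TAK1, a kinase that is switched on by TGF-beta, interleukin-1 and tumour necrosis factor and passes the signal to JNK, p38 and NF-kappaB. In liver the pathway restrains hepatocyte division, drives scarring and takes part in epithelial-mesenchymal transition. The m6A mark is written by the METTL3 complex in the motif DRACH (D is A, G or T, R is A or G, H is A, C or T). It is typically dense around stop codons and in long last exons and sparse near exon junctions.

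Tgfbr1 lies on the plus strand of chromosome 4 from 47353222 to 47414931, and the Map3k7 transcript described here on the same strand from 31964097 to 32023467. All 90 positions of Tgfbr1 and all 96 of Map3k7 fell on an exonic DRACH adenosine of their own gene, and none on one of a second gene. The chosen Tgfbr1 transcript has 9 exons and 5756 bases, of which 1512 are coding and 4154 are 3′ UTR. The Map3k7 transcript has 17 exons and 5773 bases, with 1821 coding and 3786 in the 3′ UTR. Of the 107 DRACH motifs in the Tgfbr1 transcript 84.1% were listed, from exon 4 onwards, with 73 of the 74 in the 3′ UTR but 17 of the 31 in the coding sequence. Of the 110 in Map3k7 87.3% were listed, from exon 1 to exon 17, with 63 of 70 in the 3′ UTR and 32 of 39 in the coding sequence. Both genes are thus seen mainly through their last exon, which held 76 positions of Tgfbr1 and 69 of Map3k7.

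Positions are named below by their distance in bases along the mRNA from the last base of the stop codon, negative before it and positive past it. The Tgfbr1 sites that carry the pattern are shown first, as 21 bases of mRNA in DNA letters with the DRACH motif in capitals and the measured adenosine in its middle. They were read from the GENCODE M21 transcript and are the sites on which the comparison of the gene rests.
Tgfbr1 -41, exon 9, coding sequence, chr4:47410736: aattaaaaAAACAttgtcaca
Tgfbr1 0, last base of the stop codon, chr4:47410777: tcaaaatgTAACTgaaacacc
Tgfbr1 +17, 3′ UTR, chr4:47410794: caccgtggGAACTctgctctc
Tgfbr1 +383, 3′ UTR, chr4:47411160: ttctcagaGGACTctgaacca
Tgfbr1 +3415, 3′ UTR, chr4:47414192: aaagcagaGGACTgtcagcac
Tgfbr1 +3570, 3′ UTR, chr4:47414347: aatattatGAACTgtgttttg

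The Map3k7 sites shown are the pair just past the stop codon, the cluster near the end of the 3′ UTR, and the 3 sites before that cluster.
Map3k7 +10, chr4:32019691: attctctgGGACCgttacgtt
Map3k7 +36, chr4:32019717: atatgcaaAGACCttttttta
Map3k7 +2866, chr4:32022547: catgccagAGACTgaatcatc
Map3k7 +2879, chr4:32022560: gaatcatcGGACTgagagtcg
Map3k7 +3157, chr4:32022838: cataaaagTGACTgacttatc
Map3k7 +3450, chr4:32023131: ttgtgtgaGAACTgcccactc
Map3k7 +3515, chr4:32023196: gctcggaaTGACTgcgatgtt
Map3k7 +3601, chr4:32023282: catctgagAGACAaaatgccc
Map3k7 +3684, chr4:32023365: tctggtctGAACTtttgtcat

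Most positions of both genes carried almost no m6A, and the mark was concentrated at a few sites of the last exon. In Tgfbr1, 67 of 90 positions averaged under 2% over the 6 samples, 17 lay between 2% and 10%, and 6 averaged at least 10%, or 6.67%. In Map3k7 these numbers were 64, 20 and 12 of 96, so that 12.5% averaged at least 10%. Over the 9029 positions of chromosome 4 below 59 Mb the share at 10% or more was 13.5%, and over the whole table it was 14.3%. The position just under the 10% mark averaged 7.83% in Tgfbr1 and 9.40% in Map3k7, and the one just over it averaged 14.2% and 10.2%. All 18 positions of at least 10% lay in the last exon of their gene. They were 7.89% of the last-exon positions of Tgfbr1 and 17.4% of those of Map3k7. In 165 other protein-coding genes of chromosome 4 below 59 Mb, 17.8% of last-exon positions and 7.59% of those in other exons reached 10%.

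Tgfbr1 carried its highest m6A around the stop codon. The 4 sites from -41 to +383 averaged 33.0% over the 6 samples, and a second, weaker group of 2 sites near the end of the 3′ UTR averaged 16.2%. The window from 500 bases before to the last base of the stop codon held 25.8% of the summed m6A of the gene, and the 500 bases after it held 36.3%. Over the last 100 coding bases and the first 500 past the stop codon, 4 of 16 positions reached 10% (25.0%), with a mean of 9.67%. In the 165 other genes 25.1% of 1564 positions there did, with a mean of 11.4%, so the share was the usual one. Between 500 and 3000 bases past the stop codon no position reached 10%, and the highest there averaged 4.79%.

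Map3k7 showed 2 peaks of m6A, one at each end of its 3′ UTR. The first 500 bases past the stop codon held 12 positions and 35.1% of the summed m6A, led by +10 at 80.9% and +36 at 65.2%. With the last 100 coding bases included, 5 of 14 positions reached 10% (35.7%), against 25.1% in the 165 other genes. The last stretch, beyond 3500 bases, held only 5 positions but 30.5% of the sum, led by +3684 at 68.1%. From 500 to 2500 bases past the stop codon no position reached 10%. None of the 32 coding positions did either, the highest being 9.40% at -111.

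**Figure D1:**
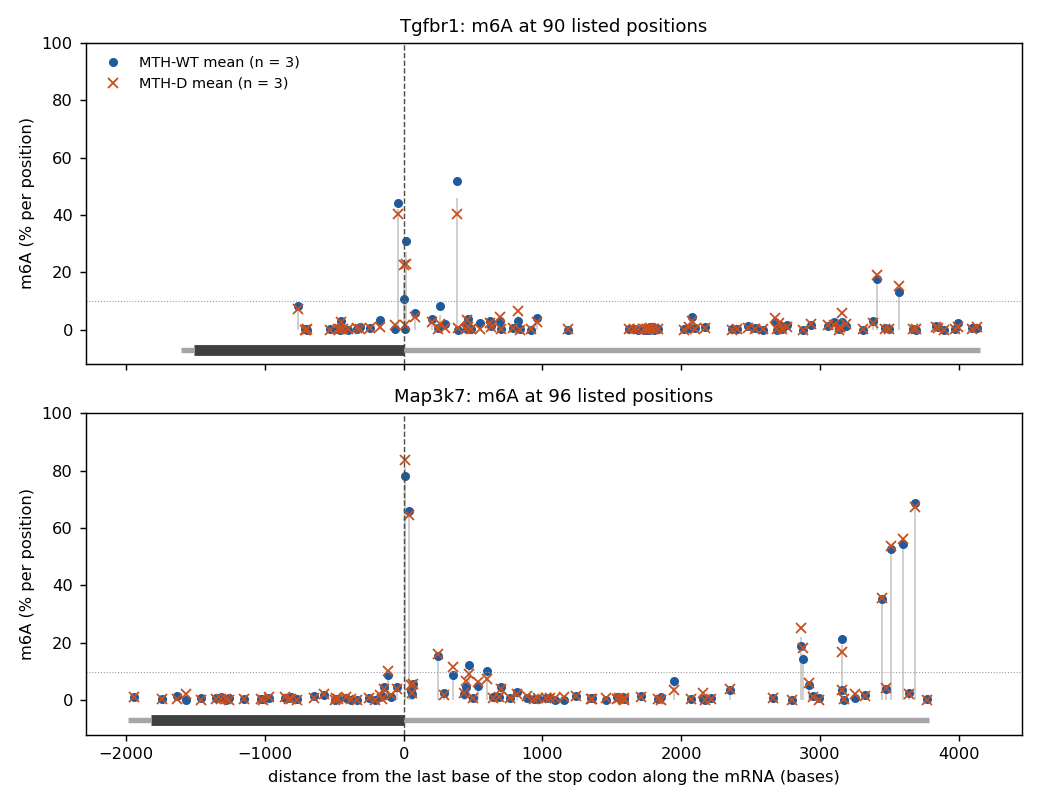
m6A in percent (vertical axis) at each listed position of Tgfbr1 (90, top) and Map3k7 (96, bottom) against the distance in bases from the stop codon (horizontal axis). Circles and crosses are the means of the 3 MTH-WT and 3 MTH-D samples, grey stems the mean of all 6, the dotted line marks 10%, and the bar below shows the UTRs (thin) and coding sequence (thick). Tgfbr1 sites lie at the stop codon, at +383 and near +3500, and Map3k7 sites at both ends of the 3′ UTR.

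The 2 genes differed in where the mark lay. Coding positions averaged 4.45% in Tgfbr1, mostly from -41 and the stop codon, and 1.21% in Map3k7, against 6.85% over 4082 coding positions of the 165 other protein-coding genes of the stretch. The 3′ UTR averaged 2.54% in Tgfbr1 and 8.69% in Map3k7, against 6.38% over 3693 positions of the other genes. In the other genes, positions within 100 bases of an exon junction averaged 1.85% and those farther away 9.48%. Map3k7 had the same order, with 1.10% over 31 near positions and 8.51% over 65 far ones. In Tgfbr1 the order was not seen, with 3.68% over 16 near positions and 2.73% over 74 far ones. The near positions include the site at -41, which lies 85 bases from the junction and averaged 42.2%. These are descriptions over positions that share libraries and transcripts, and no test was made.

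The sites with most m6A were not always in the motifs that carry most of it elsewhere. Over the other genes of the stretch the motif GGACT had the highest mean, 21.4% over 485 positions. Tgfbr1 had 3 GGACT positions, from 2.88% to 46.0%, and Map3k7 had 4, from 0.657% to 16.3%. Tgfbr1 -41 sits in AAACA, which averaged 1.89% over 671 positions of other genes, of which 2.83% reached 10%. Map3k7 +36 sits in AGACC (3.11% over 363 positions) and +3601 in AGACA (3.60% over 507). The same motif also gave very different levels within a gene, as the 8 GGACC positions of Map3k7 ran from 0.225% to 80.9%.

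Over all listed positions, mean m6A of Tgfbr1 was 2.84%, 3.54% and 2.70% in MTH-WT 1 to 3 and 2.54%, 3.58% and 2.20% in MTH-D 1 to 3. MTH-WT averaged 3.03% ± 0.451 and MTH-D 2.77% ± 0.721 (SD, n = 3 in each group). The difference of -0.252 percentage points was smaller than either SD, with p = 0.60 in an exact permutation test, two-sided here and below. The smallest p that this design allows is 0.10. Without MTH-WT 2 it was 0.00493 points and without MTH-D 3 it was 0.0351 points, so each of these libraries set its sign, and without MTH-D 2 it was -0.657 points. The samples numbered 2 were the highest of their groups, as they were over the whole table (7.45% in MTH-WT 2 and 7.68% in MTH-D 2, against 6.34% to 6.84% in the others). The share of Tgfbr1 positions listed at exactly 0 was also highest in them, at 63.3% in MTH-WT 2 and 65.6% in MTH-D 2. In the other 4 libraries it was 13.3% to 43.3%. Map3k7 had another order, with this share highest in MTH-D 1 and lowest, at 22.9%, in MTH-D 2. Over the whole table it was 40.2% in MTH-WT 2 and 35.4% in MTH-D 2, against 29.6% to 35.3% in the others. The part of these shares in the values of either gene was not tested.

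For Map3k7 the same mean was 5.83%, 6.85% and 5.50% in MTH-WT 1 to 3 and 5.82%, 7.14% and 5.55% in MTH-D 1 to 3. MTH-WT averaged 6.06% ± 0.70 and MTH-D 6.17% ± 0.852 (SD, n = 3 in each group). The difference of 0.113 points was again smaller than either SD (p = 0.70, exact permutation test). It was -0.00288 points without MTH-WT 1, -0.165 points without MTH-WT 3 and -0.373 points without MTH-D 2, and it was 0.506, 0.289 and 0.423 points without MTH-WT 2, MTH-D 1 and MTH-D 3. Map3k7 was above Tgfbr1 in 6 of 6 samples, by 2.81 to 3.56 points. For comparison, all 9029 positions of the stretch differed by -0.139 points between MTH-D and MTH-WT (p = 0.70, exact permutation test).

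**Figure D2:**
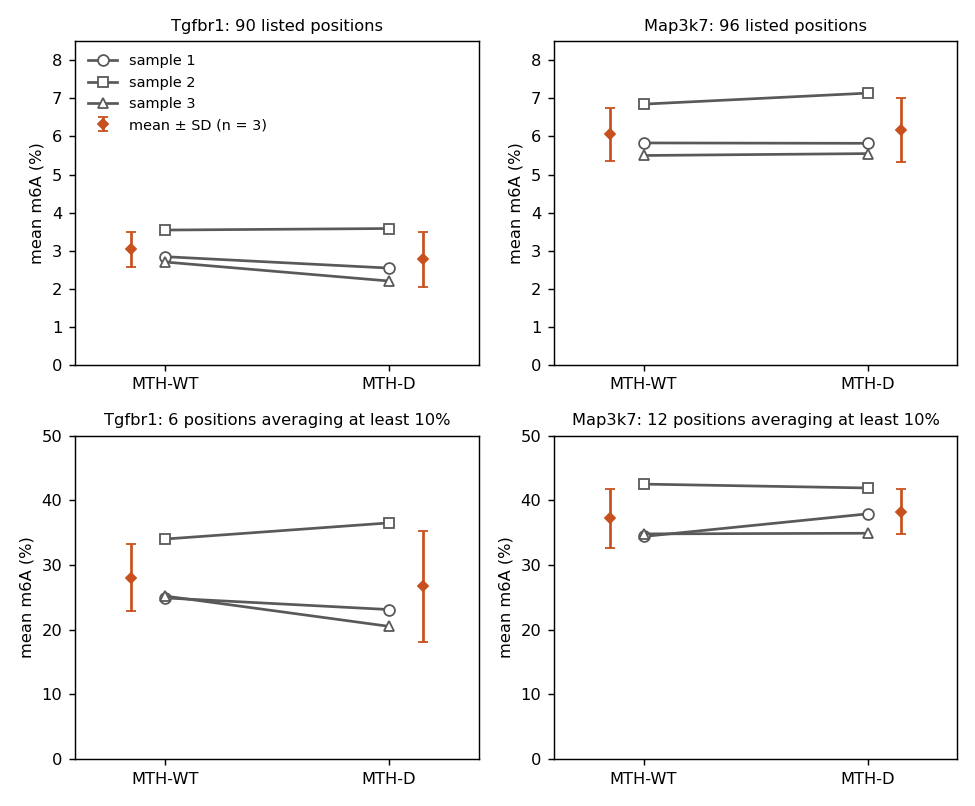
Mean m6A in percent (vertical axes) of Tgfbr1 (left) and Map3k7 (right) over all listed positions (top) and over positions averaging at least 10% (bottom) in MTH-WT and MTH-D. Lines join same-numbered samples, and diamonds with bars are means ± SD (n = 3). The samples numbered 2 lie highest in all 4 panels, and the 2 groups overlap in each.

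Over the 6 Tgfbr1 positions of at least 10%, MTH-WT averaged 28.0% ± 5.16 and MTH-D 26.7% ± 8.57 (SD, n = 3 in each group). The groups thus differed by -1.33 points (p = 0.80, exact permutation test), with -1.80 points in pair 1, 2.49 in pair 2 and -4.68 in pair 3. The stop-codon position alone set the sign of pair 2. Without it, chosen after its values were seen, the 5 other positions differed by -2.29, -5.01 and -4.55 points in pairs 1 to 3 and by -3.95 points on average, with p = 0.50 in the exact permutation test. The 73 positions of the 3′ UTR were also lower in each pair, by -0.239, -0.426 and -0.443 points, with an average of -0.369 points and p = 0.50 in the exact permutation test. The 17 coding positions differed by 0.251 points (p = 0.90, exact permutation test), with -0.575, 2.06 and -0.730 points in pairs 1 to 3. In Map3k7 the 3′ UTR was higher in each pair, by 0.214, 0.318 and 0.0617 points, and by 0.198 points on average (p = 0.60, exact permutation test). All 9029 positions of the stretch differed by -0.367, 0.162 and -0.211 points in pairs 1 to 3. The 1223 of them averaging at least 10% differed by -1.46, 0.521 and -1.90 points. The part of such shared shifts in the values of either gene was not tested.

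At Tgfbr1 +383, m6A was 48.0%, 63.2% and 43.9% in MTH-WT 1 to 3 and 36.0%, 53.9% and 31.0% in MTH-D 1 to 3. It was lower in MTH-D in each of the 3 pairs, by -11.97, -9.31 and -12.87 points, but the groups overlapped because the samples numbered 2 were high in both. On the log2 odds scale the difference was -0.67 ± 0.48 (SE), with an adjusted p of 0.939 in limma (0.203 unadjusted). With the replicate block it was -0.67 ± 0.24 (SE), with an adjusted p of 0.874 in limma (0.0482 unadjusted), so no call was made in either.

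At Tgfbr1 +17, m6A was 21.4%, 43.8% and 27.4% in MTH-WT 1 to 3 and 20.4%, 28.6% and 20.1% in MTH-D 1 to 3, lower by -1.05, -15.18 and -7.28 points in the pairs. The difference of -7.84 points was -1.39 points without MTH-WT 2. At -41 it was 43.1%, 53.3% and 35.6% in MTH-WT and 38.5%, 47.1% and 35.4% in MTH-D. Both sites were lower in MTH-D in each pair with overlapping groups, and the third pair differed by only -0.21 points at -41. The adenosine that ends the stop codon was at 15.6%, 0% and 16.96% in MTH-WT 1 to 3 and at 16.2%, 40% and 11.6% in MTH-D 1 to 3. There the difference of 11.8 points came from pair 2 alone, and over the samples numbered 1 and 3 it was -2.36 points. At the distal sites MTH-WT ranged from 11.9% to 24.7% and MTH-D from 15.7% to 25.2% at +3415, and at +3570 the ranges were 9.63% to 19.1% and 9.02% to 24.3%. The 2 distal sites differed by 1.25 and 1.92 points, well within their ranges. The next highest sites, at +82 and -761, averaged 5.18% and 7.83%, and differed by -1.27 and -1.17 points.

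At Map3k7 +10, the most methylated adenosine of either gene, m6A was 72.7%, 85.8% and 75.9% in MTH-WT 1 to 3 and 85.1%, 88.4% and 77.6% in MTH-D 1 to 3. It was higher in MTH-D in each pair, by 12.4, 2.56 and 1.76 points, while the groups overlapped. The difference of 5.58 points was 2.85 points without MTH-WT 1 and 9.42 points without MTH-WT 2. Only 1.64% of the listed positions of the whole table averaged as much as its 80.9%. At +36, 26 bases downstream, m6A was 62.2%, 76.9% and 58.4% in MTH-WT and 54.0%, 71.0% and 68.8% in MTH-D. The pairs there went different ways, by -8.25, -5.93 and 10.4 points.

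The distal cluster of Map3k7 differed little between groups. At +3684, m6A was 63.0%, 75.8% and 67.8% in MTH-WT 1 to 3 and 64.6%, 71.8% and 65.4% in MTH-D 1 to 3, a difference of -1.60 points. At +3601 it was 53.8%, 58.0% and 51.7% in MTH-WT and 63.1%, 58.5% and 47.4% in MTH-D. At +3515 it was 53.9%, 56.2% and 47.8% in MTH-WT and 53.9%, 58.97% and 48.8% in MTH-D. The differences at these 2 sites were 1.86 and 1.26 points, and at +3450, where the group means were 35.4% ± 3.64 and 35.5% ± 5.25 (SD, n = 3 in each group), it was 0.197 points.

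The sites of Map3k7 from +2866 to +3157 were lower in level. At +2866, m6A was 12.2%, 25.5% and 19.5% in MTH-WT 1 to 3 and 32.7%, 25.4% and 17.3% in MTH-D 1 to 3, so the difference of 6.03 points rested on pair 1. At +2879, 13 bases on, it was 12.2%, 17.4% and 13.3% in MTH-WT and 19.2%, 17.6% and 18.0% in MTH-D. This was the only position of at least 10% in either gene whose groups did not overlap, with a difference of 4.003 points and, in limma, 0.42 ± 0.27 (SE) in log2 odds with an adjusted p of 0.939. At +3157 the values were 18.4%, 28.7% and 17.5% in MTH-WT and 14.7%, 21.9% and 14.2% in MTH-D, lower in each pair and by -4.60 points on average, but by -1.04 points without MTH-WT 2. The 3 remaining sites of at least 10%, at +250, +355 and +471, averaged 15.9%, 10.2% and 10.8%, and differed by 0.73, 2.91 and -2.95 points.

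**Figure D3:**
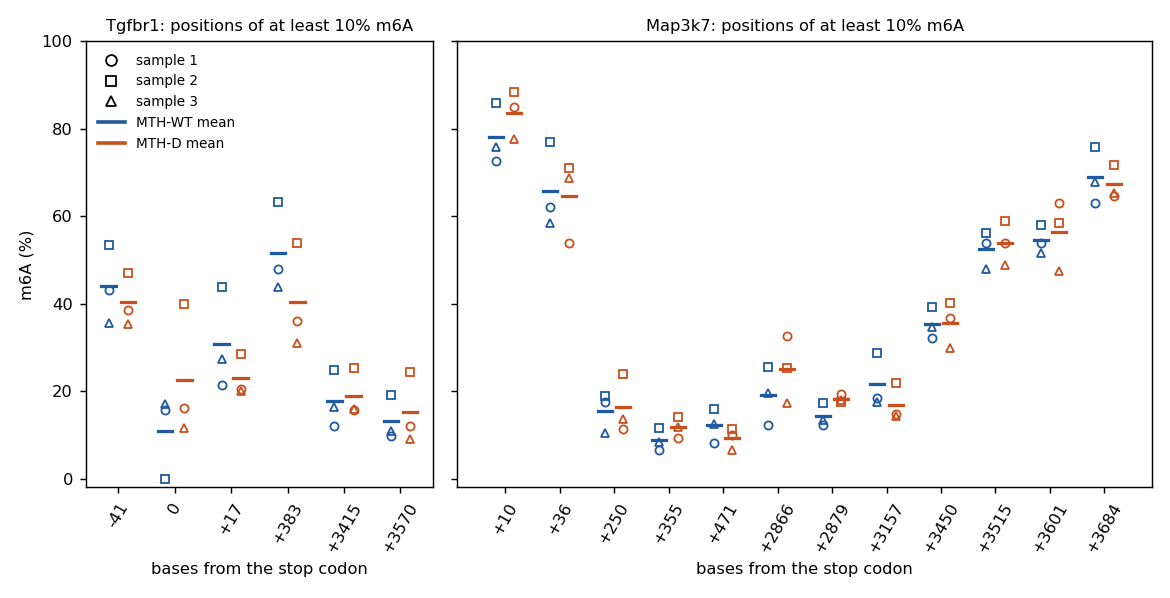
m6A in percent (vertical axis) of each sample at the 6 Tgfbr1 (left) and 12 Map3k7 (right) positions averaging at least 10%, ordered by distance from the stop codon in bases (horizontal axis). Blue symbols are MTH-WT and orange MTH-D, the shape gives the sample number, and the short lines are group means. Tgfbr1 +383 is lower in MTH-D for each shape, the stop codon spans 0% to 40% in the samples numbered 2, and Map3k7 +2879 is the position without overlap.

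Counted over these sites, 0 of 6 in Tgfbr1 and 0 of 12 in Map3k7 had every MTH-D sample below every MTH-WT sample, against 3.38% of the 81446 such positions of the whole table. In the other direction it was 0 of 6 and 1 of 12, against 2.07%. Sites lower in all 3 pairs numbered 3 of 6 in Tgfbr1 (-41, +17 and +383) and 1 of 12 in Map3k7 (+3157), against 16.4% of the table. Sites higher in all 3 pairs numbered 0 of 6 and 3 of 12 (+10, +355 and +2879), against 9.07%. In Tgfbr1, 2 of 6 were lower by 5 points or more and 1 was higher by as much, and in Map3k7 0 were lower and 2 of 12 were higher, against 15.2% lower and 9.28% higher in the table. The median difference over these sites was -1.22 points in Tgfbr1 and 0.997 points in Map3k7, and over the table it was -0.687 points.

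In limma over all 567667 listed rows, no position of either gene had an adjusted p under 0.05, and none did in the whole table (0%). The smallest adjusted p was 0.939 in Tgfbr1 and 0.586 in Map3k7. At an unadjusted p under 0.05 there were 2 of 90 positions in Tgfbr1 and 3 of 96 in Map3k7, against 3.22% of the table. All 5 averaged under 10% m6A and were named after their values were seen. In Tgfbr1, +263 was lower, at 8.31% ± 6.48 against 1.95% ± 1.70 in the knockout (SD, n = 3 in each group), and +3159 was higher, at 2.56% ± 1.02 against 5.75% ± 2.25. In Map3k7 all 3 were higher in MTH-D. The one with the smallest p (0.00284 in limma) lay in exon 3 at -1567, and was listed at 0 in the 3 MTH-WT samples and at 2.86%, 2.33% and 0.93% in MTH-D 1 to 3. The other 2, at +2161 and +3252, averaged 1.50% and 1.53% over the 6 samples. No listed position of either gene was at 0 in all 6 samples. If a position had to show m6A in some sample to be listed, -1567 is listed only through MTH-D. Its p would then rest in part on that selection, so no difference is read from it.

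At the level of genes, 110 genes of chromosome 4 below 59 Mb had at least 3 positions of at least 10% and were fitted together. Tgfbr1 differed by 0.12 ± 0.34 (SE) in log2 odds and Map3k7 by 0.09 ± 0.31 (SE), each with an adjusted p of 0.998 in limma, and 0 of the 110 genes were called (0%), with 0 at an unadjusted p under 0.05. With the replicate block 0 were called and 9 had an unadjusted p under 0.05, 8 of them lower in MTH-D. The sign for Tgfbr1 differs from that in percent, and it was -0.22 without the stop codon, -0.24 without MTH-D 2 and -0.21 over the samples numbered 1 and 3. For Map3k7 it was -0.04 without MTH-WT 1, 0 without MTH-WT 3 and -0.06 without MTH-D 2. Over the 110 genes the median log2 odds difference was -0.08, with 75 genes lower in MTH-D. Single libraries set this direction, as 34 genes were lower without MTH-WT 2 (median 0.09) and 38 without MTH-D 3 (median 0.08), against 104 without MTH-D 2 (median -0.28). In percent 78 genes were lower in MTH-D with a median of -0.759 points. Ordered from the largest decline in percent, Tgfbr1 was number 42 and Map3k7 number 93, so neither stood at an end of the range from -6.16 to 6.97 points. By mean level over all positions, Map3k7 was number 56 and Tgfbr1 number 92 of the 143 genes with at least 20 listed positions, whose median was 4.97%.

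**Figure D4:**
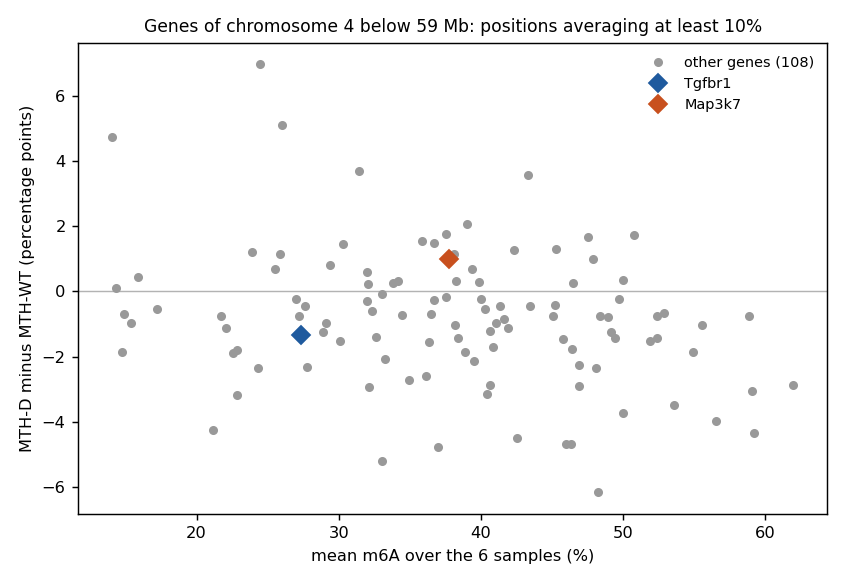
Difference of MTH-D minus MTH-WT in percentage points (vertical axis) against mean m6A over the 6 samples in percent (horizontal axis) for 110 genes of chromosome 4 below 59 Mb, each averaged over its positions of at least 10%. Tgfbr1 (blue, -1.33 points) and Map3k7 (orange, 1.01 points) lie within the cloud of the other genes (grey).

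Of 3 other genes of the stretch listed by name for their part in TGF-beta signalling, a list that is not complete, 1 entered the fit over genes and was not called. Ccnc, cyclin C, whose kinase partner phosphorylates Smad linkers, had 67 listed positions with 2.56% ± 0.461 for MTH-WT and 2.64% ± 0.202 for MTH-D (SD, n = 3 in each group). Its 3 sites of at least 10% averaged 33.7% and 34.0%, and the gene differed by 0.16 ± 0.29 (SE) in log2 odds, with an adjusted p of 0.998 in limma. Tmeff1, a membrane protein with follistatin domains, had 23 listed positions and too few sites for the fit, with 2.58%, 3.12% and 2.14% in MTH-WT 1 to 3 and 0.395%, 2.64% and 1.98% in MTH-D 1 to 3. MTH-D 1 was the lowest of the 6, and the difference of -0.941 points had p = 0.30 in the exact permutation test. Gdf6, a ligand of the BMP branch, had 0 listed positions.

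Genes whose m6A closely followed that of Tgfbr1, after the mean of the 110 genes was taken from each sample, included Rragd (Pearson r of 0.858) and Fbxo10 (0.847). For Map3k7 they were Pnisr (0.932), Ube2j1 (0.861) and Nbn (0.852). These are correlations over 6 samples, chosen as among the highest of the 110 genes, with no p given. Tgfbr1 and Map3k7 correlated at -0.347 with each other. The neighbours of Tgfbr1 on the chromosome, Galnt12 and Alg2, gave 0.792 and -0.751, and those of Map3k7, Epha7 and Casp8ap2, gave 0.202 and -0.062.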

How the data were processed

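RNA m6A was measured by direct RNA sequencing (SQK-RNA004) of 3 MTH-WT and 3 MTH-D samples, 1 flow cell per sample. The authors deposited m6A as a fraction from 0 to 1 per position and sample, without coverage. The submitters' processing notes name minimap2 2.26, SAMtools and GRCm39, and the modification caller and its filters are not given in the sources used here. Whether a coverage filter decided which positions are listed is not stated. No listed position of either gene was at 0 in all 6 samples, so motifs without any m6A call may have been left out. An unlisted motif may thus be unread or unmodified. The mean levels and shares hold for listed positions only. Fractions were converted to percent.

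Positions are counted from 0 in the table and are printed counted from 1. Genes come from GENCODE M21 on GRCm38. Below 59 Mb of chromosome 4, 93.8% of 9029 listed positions fell on an exonic DRACH adenosine when counted from 0 and 0.87% when counted from 1, and for both genes all did. Coordinates were used in that stretch only, and none was converted. Each gene was described on the protein-coding transcript whose exons held most listed positions. The members, lists and tests were chosen with earlier results of these data known.

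Means per sample were compared by unpaired two-sided exact permutation tests (scipy 1.17.1). Positions were tested with limma 3.58.1 (R 4.3.3) over all 567667 rows, after each percentage had been turned into log2 odds with 1 point added to the modified and the unmodified share, with Benjamini-Hochberg adjustment at 0.05. Genes were tested in the same way on their mean log2 odds over positions averaging at least 10%. Both fits were also run on simulated data, with values drawn independently for each row and sample. The planted changes were larger than the log2 odds differences at Tgfbr1 +383 and of either gene. These runs therefore do not show that differences of that size could be called. Named positions were the 8 with the highest mean over the 6 samples in each gene, any with an adjusted p under 0.05, and those of at least 10% with the largest differences without overlap. The most alike genes were the 3 with the highest correlation over the 6 samples, of which 1 for Tgfbr1 is not reported here. After subtraction of group means, the samples sharing number 1, 2 or 3 correlated at 0.164, 0.223 and 0.133 over 81446 positions of at least 10%. Samples with different numbers were not correlated in this way, so these values do not settle whether the numbers mark pairs. The numbers, which the labels give, were used for differences per pair and as the block, while the main tests were unpaired. The study also describes its cells as paired. As alternatives, every sample was omitted in turn, only samples 1 and 3 were kept, the replicate number was added as a block, the offset was raised to 5 points, percentages were fitted untransformed, means were replaced by medians, and other sets of positions were used. Leaving out both samples numbered 1 or 3, and leaving out the stop codon, were chosen after seeing the data. Tests on read counts were not run.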

Additional observations from a re-analysis of the deposited data

How the results depend on the processing

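Single positions have unknown depth, which limits their precision. With the replicate block the differences in mean m6A, -0.252 points for Tgfbr1 and 0.113 points for Map3k7 (exact sign-flip permutation test, p = 0.50 for each, where 3 pairs cannot go below 0.25), equal the main values by arithmetic, and the block changed no call. Across the 6 computations that each left out 1 sample, the Tgfbr1 difference ranged from -0.657 to 0.0351 points and the Map3k7 difference from -0.373 to 0.506 points. With the median over positions the Map3k7 difference reversed to -0.218 points. Over the samples numbered 1 and 3 the differences were -0.400 and 0.0199 points. In log2 odds, leaving out 1 sample gave -0.24 to 0.37 for Tgfbr1 and -0.06 to 0.31 for Map3k7. Tgfbr1 reversed to -0.21 over the samples numbered 1 and 3, to -0.22 without the stop codon and to -0.04 with all assigned positions, and Map3k7 to -0.02 with all assigned positions. The cause of the reversals was not tested. No position of either gene was called under any alternative run, with smallest adjusted p-values from 0.347 to 1 in Tgfbr1 and 0.0941 to 1 in Map3k7 (limma). The coverage minimums were not run, since no coverage is given, and positions on an exonic DRACH were all positions.

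Of the 17 named positions, 10 changed sign in at least 1 alternative. With 1 sample left out, the Tgfbr1 differences ranged from -7.89 to 0.962 points at -41, -1.89 to 4.75 at +3415, -2.67 to 4.97 at +3570 and -5.44 to 2.10 at -761, and the stop codon reversed to -2.36 points over the samples numbered 1 and 3. In Map3k7 they ranged from -4.54 to 1.88 points at +3684, -4.98 to 4.27 at +36, -1.52 to 6.33 at +3601, -1.28 to 3.80 at +3515 and -2.09 to 3.06 at +3450, and over the samples numbered 1 and 3 they reversed to 1.07 points at +36 and -0.130 points at +3450. The other 7 kept their direction but not their size. With 1 sample left out, Tgfbr1 +383 ranged from -18.2 to -5.64 points, the lowest without MTH-D 2 and the highest without MTH-WT 2. The Tgfbr1 ranges were -12.6 to -1.39 at +17 and -1.75 to -0.608 at +82, and the stop codon, which reversed above, ranged from 3.06 to 17.3. The Map3k7 ranges were 2.85 to 9.42 at +10, 2.3 to 9.94 at +2866, -7.09 to -1.04 at +3157 and 2.94 to 5.54 at +2879. Among the 110 genes the number lower in MTH-D ranged from 34 to 104.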
